A study of Jatropha curcas with 22 samples.

Results

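Root tips of Jatropha curcas seedlings left without water for 13 days, called moderate drought here, were compared with root tips of seedlings that stayed watered until the same day. Jatropha curcas is an oilseed shrub of dry tropical regions, and the seedlings were of the Cape Verde islands strain, 36 days old when watering stopped and grown in pots in a greenhouse. All 57437 gene models of the authors' count table were considered, and the 23401 with at least 10 reads in 2 of the 4 day 13 root libraries were tested. Each group had 2 libraries, and 3 plants were pooled per treatment on day 13. The whole series holds 22 libraries of the same strain from root tips and young leaves. Its other root groups are severe drought (49 days without water), rewatered plants (day 52, after the 49 days) and watered controls that carry a joint label of days 49 and 52. They were sequenced the same way and are used below to estimate the spread and to set values side by side. Pools held 6 plants under severe drought and 3 after rewatering, and the number for the late controls is not known here. The labels do not say whether the libraries of a group came from separate plants, so the p-values below measure only the spread between these libraries.

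A root tip holds a root cap, a meristem of dividing cells, a zone where cells elongate, and young tissue in which xylem, phloem and the endodermis mature. Plants short of water make the hormone abscisic acid (ABA) from carotenoids. ABA binds PYR/PYL receptors, which then hold back clade A protein phosphatases 2C and so release kinases that switch on protective genes, among them those for dehydrins and for compounds that keep water in the cell. In roots this response goes along with altered growth, cell wall extension, ion uptake and water channel activity. RNA from all these cells was read together, so fewer cells of a type and less RNA per cell cannot be told apart.

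The moderate drought libraries held 57579997 and 61148792 reads, and the day 13 controls 52193845 and 40505308. Levels are given as CPM, counts scaled to a common library size after TMM normalization, always for replicate 1 and then replicate 2, and 3 reads corresponded to 0.0483 CPM under moderate drought and 0.0695 CPM in the controls. The controls varied more: the median absolute log2 difference between the libraries of a group was 0.219 under moderate drought and 0.41 in the day 13 controls, and in the other root groups it ran from 0.145 to 0.259. Moderate drought replicate 1 stood nearer to the day 49/52 controls (Pearson r of 0.959 and 0.953 across genes) than to the day 13 controls (0.919 for each), while replicate 2 had 0.941 and 0.927 with the late controls and 0.95 and 0.947 with the day 13 controls. Genes of photosystems and antennae, which mark green tissue, summed to 160 and 136 CPM under moderate drought and to 205 and 303 CPM in the day 13 controls, and to 20040 and 21280 CPM in the leaf controls of that day. After scaling, all genes tested summed to 959200 and 949200 CPM under moderate drought and to 959600 and 1130000 CPM in the day 13 controls. Sums over a list therefore stand somewhat high in control replicate 2.

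Moderate drought changed 743 genes in the root tip (3.18% of those tested). Of these, 520 rose (2.22%) and 223 fell (0.953%), and 488 of the rises and 183 of the falls were larger than 2-fold. The rises had a median log2 fold change of 1.99 and the falls one of -1.56, against 0.02 over all genes tested. A gene is said to have risen or fallen where edgeR's quasi-likelihood test, adjusted by the Benjamini-Hochberg method over the 23401 genes, gave an adjusted p under 0.05. The same test is meant wherever an adjusted p is printed, and the smallest was 0.0114. In the main comparison it used a spread per gene shared over the 10 root libraries. The calls thus rest in part on groups that varied less than the day 13 controls. Without adjustment, 5822 genes had a p under 0.05, with 3081 higher and 2741 lower. The groups did not overlap in any of the 743 genes, while 52.9% of all genes tested had groups that did not overlap. Replicate 1 of the moderate drought libraries lay farther from the controls than replicate 2 in 91.7% of the rises and 79.8% of the falls. Over all genes tested, replicate 1 was above replicate 2 in 52.9%. Of the rises, 44 had passed the read minimum through the drought libraries alone, as had 8 of the falls through the controls alone.

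**Figure D1:**
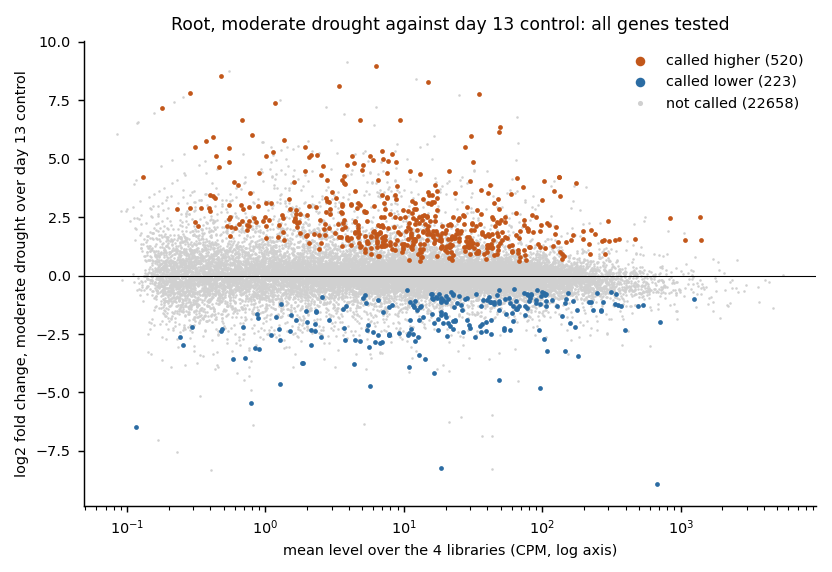
Change of each of the 23401 genes under moderate drought (vertical axis, log2 fold change, moderate drought over day 13 control) against its mean level over the 4 libraries (horizontal log axis, CPM). Coloured points are the 520 genes that rose and the 223 that fell, and the largest changes lie between about 8 and 9 on the log2 scale in both directions.

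How many genes were called depended on single libraries. Without moderate drought replicate 1, 18 genes rose and 1 fell; without moderate drought replicate 2, 824 rose and 328 fell. Without day 13 control replicate 1, 2168 genes rose and 2389 fell; without day 13 control replicate 2, 2 rose and 0 fell, although 2410 and 1788 genes had an unadjusted p under 0.05. In such a fit the lone library is taken to vary like the other root groups. Of the 97 genes named below as risen or fallen, 10 were still called without moderate drought replicate 1 and 1 without day 13 control replicate 2, but all kept their direction in each of these 4 fits. The fold of 36 of the 99 named genes moved by more than 1.5 times in at least 1 of them, and its log2 value is given below without each such library, except for 2 of them that had too few control reads for a fold. List medians moved too: of the 58 lists, 16 had a median that changed sign and 50 one that changed sign or moved by more than 1.5 times, so the medians are descriptions of these libraries. Of the named genes, 9 had passed the read minimum through the drought libraries alone and 3 through the controls alone. Such a gene had to differ to be tested, and this is said beside each of them. DESeq2 on the same counts called 1727 genes higher and 1456 lower, while edgeR on the 4 compared libraries alone called 0 in either direction, with 2228 and 1598 genes at an unadjusted p under 0.05.

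**Figure D2:**
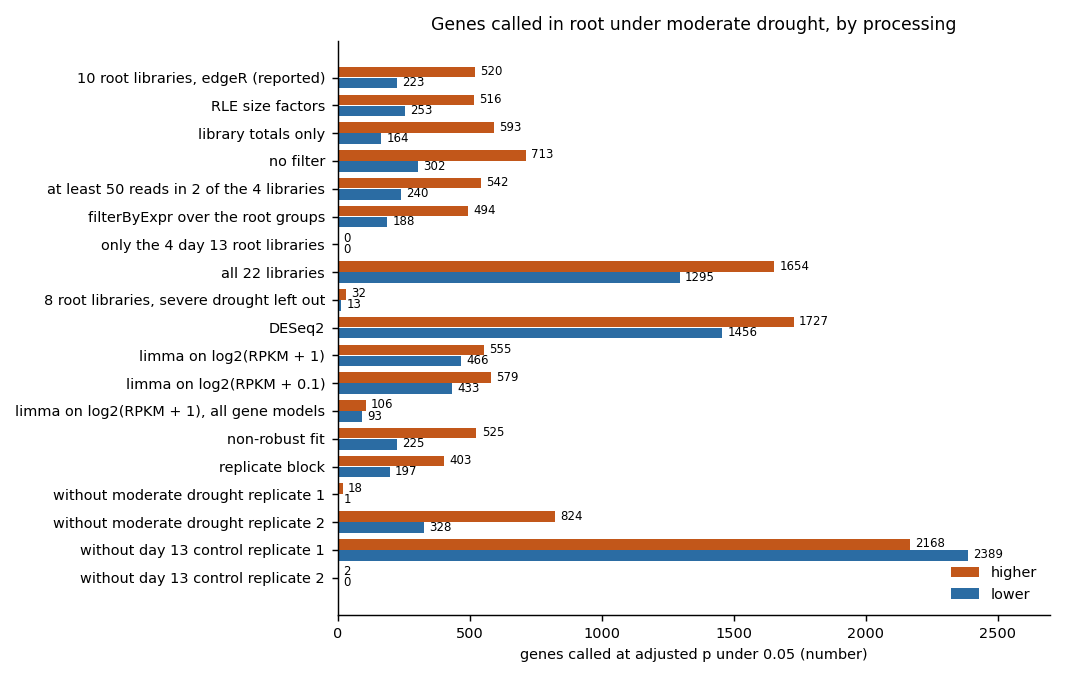
Number of genes called higher (upper bar of each pair) and lower (lower bar) in moderate drought root under the reported analysis and each alternative, at an adjusted p under 0.05. The counts run from 0 with only the 4 compared libraries to 2168 higher and 2389 lower without day 13 control replicate 1.

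Part of the ABA synthesis pathway rose. Of its 14 tested genes, 4 rose and 0 fell, all 14 had a log2 fold change above 0, and the median was 0.84. Among all genes tested 2.22% rose and 0.953% fell, and every list count below is to be read beside these shares. The gene for 9-cis-epoxycarotenoid dioxygenase 5 (Jcr4S15630.10) had 161 and 108 CPM in the moderate drought libraries, against 9.36 and 10.1 CPM in the day 13 controls. The dioxygenases of this family (NCED) cleave carotenoids to the first precursor that is committed to ABA, and their step limits its synthesis. Both drought libraries lay far above both controls, with a 13.8-fold difference of the means and a log2 fold change (with its SE) of 3.79 ± 0.29 (adjusted p = 0.0114). A second gene of the family, described as NCED3 (Jcr4S03683.20), had 106 and 15.2 CPM in the moderate drought libraries, against 1.45 and 2.71 CPM in the day 13 controls. Replicate 1 was far higher than replicate 2 here, and the log2 fold change of 4.88 ± 0.90 (adjusted p = 0.0393) missed the threshold without replicate 1. It was 2.88 in that fit and 5.69 without drought replicate 2. Beta-carotene hydroxylase (Jcr4S01869.30), which makes zeaxanthin further up the same route, had 112 and 69.9 CPM in the moderate drought libraries, against 13.7 and 18.6 CPM in the day 13 controls, a 5.64-fold difference (adjusted p = 0.0189). The fourth riser, Jcr4S00215.20, whose shortened description names zeaxanthin, had 9.02 and 8.08 CPM under moderate drought against 5.46 and 3.96 CPM in the controls, a 1.81-fold difference (adjusted p = 0.0483). It lies outside the rule for named genes and was chosen after its values were seen.

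**Figure D3:**
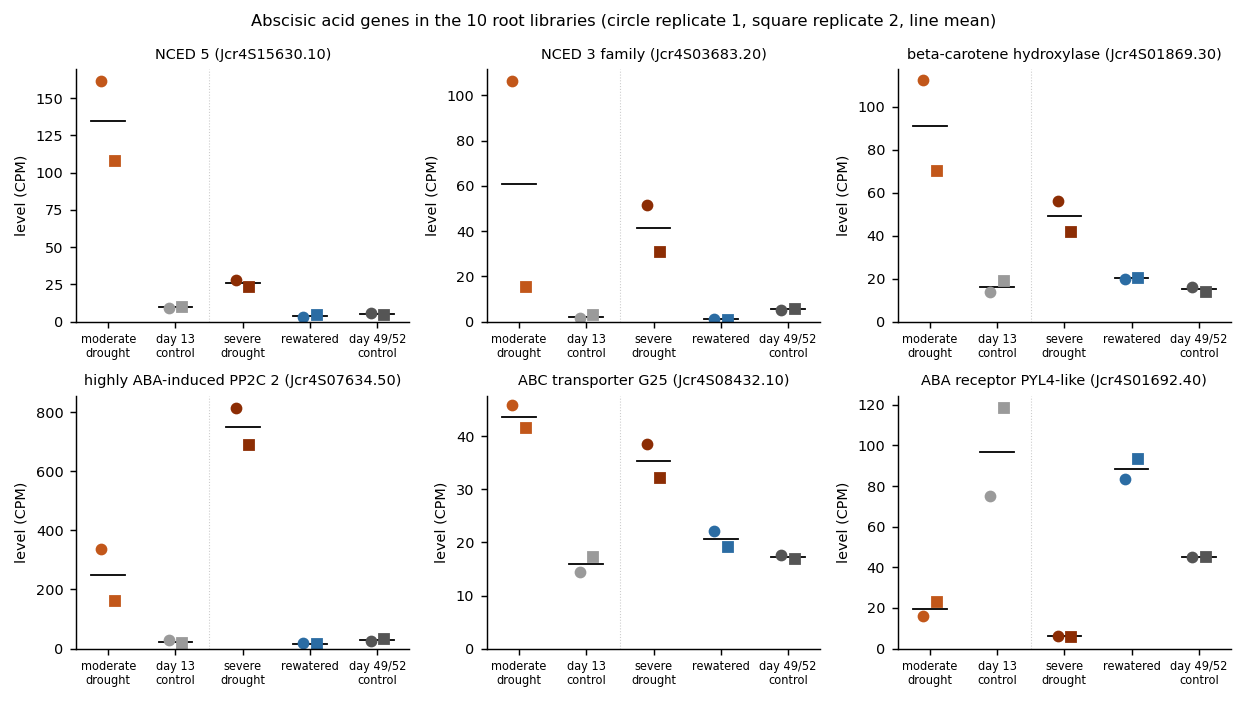
Level (CPM, vertical axis from 0) of 6 genes of ABA synthesis, signalling and transport in the 10 root libraries, with replicate 1 as a circle, replicate 2 as a square and a line at the mean of the group. For the 5 genes that rose, both moderate drought libraries lie above both day 13 controls, and for the receptor PYL4-like they lie below them.

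ABA breakdown starts with the ABA 8'-hydroxylases, and 2 such genes were tested. One of them (Jcr4S01285.10) rose, with 10.7 and 3.20 CPM in the moderate drought libraries, against 0.644 and 0.195 CPM in the day 13 controls, a 16.5-fold difference (adjusted p = 0.0416). The other (Jcr4S00544.20), also chosen after its values were seen, had 58.9 and 37.1 CPM under moderate drought against 0.699 and 5.14 CPM in the controls and missed the threshold (adjusted p = 0.0869). The controls of the second gene differed more from each other than those of the first. The log2 fold change of the first was 3.98, but 2.87 without drought replicate 1, 4.61 without drought replicate 2 and 5.13 without control replicate 1, and that of the second was 4.07, but 3.22 without control replicate 1 and 6.08 without control replicate 2.

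ABA signalling genes moved in both directions. A clade A phosphatase gene described as highly ABA-induced PP2C 2 (Jcr4S07634.50) had 336 and 159 CPM in the moderate drought libraries, against 27.9 and 18.4 CPM in the day 13 controls. In Arabidopsis such phosphatases restrain ABA signalling and are themselves induced by the hormone. Its log2 fold change was 3.41 ± 0.38 (SE; adjusted p = 0.0189), and it rose in the fit without moderate drought replicate 1 too, at 2.78. Of the 26 phosphatases 2C tested it was the 1 that rose (3.85%, against 2.22% of all genes tested), none fell, and the median of the family was 0.04. An ABA receptor gene, PYL4-like (Jcr4S01692.40), fell 4.97-fold, with 16.0 and 23.03 CPM in the moderate drought libraries, against 75.3 and 119 CPM in the day 13 controls (adjusted p = 0.0189). ABCG25 (Jcr4S08432.10), described as an ATP-binding cassette protein of family G that in Arabidopsis exports ABA from cells, had 46.0 and 41.5 CPM under moderate drought against 14.5 and 17.3 CPM in the controls. It rose 2.75-fold with little spread in either group (log2 fold change 1.46 ± 0.16, adjusted p = 0.0189). Among all 88 ABC transporter genes tested, 6 rose and 1 fell, with a median log2 fold change of 0.17.

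Protective proteins showed 1 change of high abundance. Of 12 late embryogenesis abundant (LEA) and dehydrin genes, 1 rose and 0 fell, with a median log2 fold change of 0.56 (0.24 without drought replicate 1, 1.02 without drought replicate 2) and 11 of the 12 above 0. The riser was a dehydrin (Jcr4S01519.40), among the 5 rising genes with the highest level per gene length. It had 2397 and 1813 CPM in the moderate drought libraries, against 839.6 and 603 CPM in the day 13 controls, a 2.92-fold difference (adjusted p = 0.0352). Dehydrins are hydrophilic proteins that protect membranes and enzymes in drying cells. Of 18 genes named for abscisic stress and ripening or for early dehydration, 0 rose by this test, and 1 fell, a gene described as RD22 (Jcr4S01767.10), at 6.77 and 11.3 CPM under moderate drought against 26.4 and 35.9 CPM in the controls (adjusted p = 0.0324). Their median log2 fold change was 0.51, and in the alternatives listed at the end between 0 and 4 of them rose.

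Some genes of sugar metabolism rose. Of 44 genes of sucrose and starch metabolism, 3 rose and 0 fell, with a median log2 fold change of 0.27. Sucrose-phosphate synthase (Jcr4S01533.40), which makes the precursor of sucrose, had 308 and 143 CPM in the moderate drought libraries, against 20.9 and 15.3 CPM in the day 13 controls. That is a 12.4-fold difference (log2 fold change 3.63 ± 0.45, adjusted p = 0.0244), with replicate 1 about 2 times as high as replicate 2 and both far above the controls, and 2.98 on the log2 scale without drought replicate 1. Sucrose synthases, which cleave sucrose in sink tissue, rose as well. Sucrose synthase 1 (Jcr4S00994.10) had 28.0 and 24.4 CPM under moderate drought against 12.7 and 9.71 CPM in the controls (adjusted p = 0.0404), and sucrose synthase 6 (Jcr4S03359.20) had 48.5 and 39.98 CPM under moderate drought against 24.3 and 21.02 CPM in the controls (adjusted p = 0.0392). Outside the lists used here, an alkaline alpha-galactosidase (Jcr4S02582.50), an enzyme type that breaks down raffinose sugars, rose 2.88-fold, with 1933 and 1244 CPM under moderate drought against 573 and 529.8 CPM in the controls (adjusted p = 0.0393). Of 18 genes for raffinose sugars, trehalose, proline and other osmolytes, 0 passed edgeR's test in either direction, with a median of 0.42. Stachyose synthase (Jcr4S04828.20) came nearest, with 141 and 68.7 CPM under moderate drought against 31.4 and 31.1 CPM in the controls (adjusted p = 0.0518), and a log2 fold change of 1.75, but 1.14 without drought replicate 1. By DESeq2 and the other alternatives up to 4 of the 18 rose and up to 2 fell.

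Of 28 aquaporin genes, the water channels of membranes, 2 rose and 0 fell. Their median log2 fold change was -0.39, with 11 of the 28 above 0, but -0.12 without control replicate 2 and -0.64 without control replicate 1. A tonoplast intrinsic protein (Jcr4S16114.20), a channel of the vacuolar membrane, had 472 and 518 CPM in the moderate drought libraries, against 111 and 87.3 CPM in the day 13 controls. It rose 4.99-fold (adjusted p = 0.0279), and its replicates lay close together in both groups. A NIP1-2-like aquaporin (Jcr4S07404.30), of a family that also passes small uncharged molecules, had 14.4 and 12.9 CPM under moderate drought against 3.55 and 2.90 CPM in the controls (adjusted p = 0.0261). In the alternatives between 0 and 8 aquaporins fell.

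Proton pumps, which energise uptake across membranes, also differed among themselves. In the list made for them 13 genes were tested, of which 2 rose and 0 fell, while 11 had a log2 fold change at or below 0 (median -0.36, or -0.22 without control replicate 2). These counts hold for the list and not for all pumps: a riser in it may not be a pump, and an ATPase that fell lies outside it (both below). The plasma membrane ATPase 1-like gene (Jcr4S01029.40) had 514 and 472 CPM in the moderate drought libraries, against 194 and 152 CPM in the day 13 controls, a log2 fold change of 1.51 ± 0.16 with close replicates (adjusted p = 0.0189). An inorganic pyrophosphatase 2-like gene (Jcr4S01426.60), whose description does not say whether it pumps protons, had 32.8 and 39.2 CPM under moderate drought against 9.40 and 6.59 CPM in the controls (adjusted p = 0.0273). Outside that list, Jcr4S01673.10, described as a proton-transporting ATPase of the plasma membrane, fell 2.00-fold and was among the 5 falling genes with the highest level per gene length. It had 742 and 928 CPM under moderate drought against 1558 and 1787 CPM in the controls (adjusted p = 0.0492).

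Ion uptake changed gene by gene. Of 60 potassium and cation transport genes, 4 rose (6.67%) and 0 fell, against 2.22% and 0.953% of all genes tested (median 0.05, or -0.02 without drought replicate 1). Among the risers was the potassium channel AKT2 (Jcr4S06908.10), which in Arabidopsis is a phloem channel. It had 8.32 and 6.45 CPM under moderate drought against 2.39 and 1.45 CPM in the controls (adjusted p = 0.0274). Of 47 nitrate and ammonium genes, 2 rose (4.26%) and 3 fell (6.38%), with a median of -0.13 (-0.43 without drought replicate 1). A nitrate transporter family gene (Jcr4S00065.170) had 296 and 220.3 CPM in the moderate drought libraries, against 79.0 and 74.2 CPM in the day 13 controls, a 3.37-fold rise (adjusted p = 0.0383). A high affinity nitrate transporter (Jcr4S03942.10), of the kind that works at low soil nitrate, fell 4.99-fold, with 1.32 and 2.31 CPM under moderate drought against 12.0 and 6.11 CPM in the controls (adjusted p = 0.0437). A further putative nitrate transporter (Jcr4S04372.30) had 30.5 and 40.4 CPM under moderate drought against 81.1 and 94.2 CPM in the controls (adjusted p = 0.0274). Thus transporters described for the same ion lay on both sides. Of 24 phosphate and sulfate genes, 3 rose and 0 fell (median 0.05, or -0.08 without drought replicate 1 and -0.07 without control replicate 1). The sulfate transporter Jcr4S02200.10 had 85.4 and 70.9 CPM in the moderate drought libraries, against 18.8 and 13.5 CPM in the day 13 controls, a log2 fold change of 2.27 ± 0.19 (adjusted p = 0.0114), and stayed called without moderate drought replicate 1.

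Among 35 iron and zinc genes, 1 rose and 1 fell, against 2.22% and 0.953% of all genes tested. Nicotianamine synthase (Jcr4S00112.230), which makes a chelator that carries iron and other metals within the plant, had 60.2 and 62.6 CPM in the moderate drought libraries, against 20.3 and 27.3 CPM in the day 13 controls (adjusted p = 0.0279). Ferric reduction oxidase 4 (Jcr4S00346.110), one of the membrane reductases that make ferrous iron or reduce copper for uptake, fell 4.99-fold, with 17.2 and 18.1 CPM under moderate drought against 99.1 and 77.2 CPM in the controls (adjusted p = 0.0279). Outside that list, yellow stripe-like 5 (Jcr4S00067.30), of a family that carries metals bound to nicotianamine, was among the 12 largest rises. It had 20.6 and 11.1 CPM under moderate drought against 0.423 and 0.419 CPM in the controls, a 37.7-fold difference (adjusted p = 0.0455).

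Cell wall genes are given by enzyme class, and no test compared the classes. Of 82 cellulose synthase, laccase and lignin genes, 8 rose and 0 fell, with a median log2 fold change of 0.16 (0.09 without drought replicate 1). A pair of cellulose synthase family genes rose 8.58-fold and 7.35-fold with close replicates. The first (Jcr4S00453.10) had 13.2 and 12.4 CPM under moderate drought against 1.56 and 1.42 CPM in the controls, and the second (Jcr4S13518.10) had 7.67 and 8.59 CPM under moderate drought against 1.12 and 1.09 CPM in the controls (adjusted p = 0.0177 and 0.0189). A cellulose synthase-like gene (Jcr4S00078.10) had 16.4 and 25.5 CPM under moderate drought against 3.04 and 2.74 CPM in the controls (adjusted p = 0.0261). The descriptions do not tell whether these genes belong to the cellulose synthases proper or to the related -like families that make other wall polymers.

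Class III peroxidases, secreted enzymes that use hydrogen peroxide to stiffen walls or to loosen them, gave calls in 1 direction. Of 65 tested, 8 fell and 0 rose, and the median log2 fold change was -0.82 (-1.51 without drought replicate 2), with 15 of the 65 above 0. Cationic peroxidase 2 (Jcr4S07131.10) had 13.5 and 14.6 CPM in the moderate drought libraries, against 52.6 and 65.9 CPM in the day 13 controls, a log2 fold change of -2.08 ± 0.25 (adjusted p = 0.0244). Peroxidase 27 (Jcr4S06271.30) fell 11.8-fold and was among the 12 largest falls. It had 1.07 and 3.35 CPM under moderate drought against 31.4 and 20.6 CPM in the controls (adjusted p = 0.0412), and its log2 fold change was -3.55, but -2.96 without drought replicate 1 and -4.61 without drought replicate 2. A peroxidase superfamily gene (Jcr4S02619.50) had 19.1 and 35.2 CPM under moderate drought against 141 and 213 CPM in the controls (adjusted p = 0.0352). All the drought libraries lay below the controls for these 3 genes.

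Among 84 pectin enzyme genes, 6 fell and 1 rose, with a median of -0.46. Pectin methylesterases, which strip methyl groups from pectin and so alter how it gels, included Jcr4S00004.400 with 31.7 and 39.6 CPM under moderate drought against 94.9 and 134 CPM in the controls (adjusted p = 0.0315) and Jcr4S02562.10 with 26.8 and 27.0 CPM under moderate drought against 51.1 and 65.7 CPM in the controls (adjusted p = 0.0301). A probable pectinesterase 36-like gene (Jcr4S00233.40) fell 25.6-fold to near the limit of counting, with 0.0667 and 0.124 CPM under moderate drought against 3.02 and 1.87 CPM in the controls (adjusted p = 0.0261). It passed the read minimum through the controls alone. Their inhibitors moved both ways, with 2 rises and 1 fall among 8. The inhibitor Jcr4S01590.10 had 9.15 and 12.0 CPM in the moderate drought libraries, against 51.4 and 47.8 CPM in the day 13 controls, and its log2 fold change of -2.23 ± 0.18 was among the best supported (adjusted p = 0.0114) and stayed called without moderate drought replicate 1. The inhibitor Jcr4S10330.30 rose 9.65-fold, with 36.2 and 13.3 CPM under moderate drought against 2.12 and 3.02 CPM in the controls (adjusted p = 0.0301), and its log2 fold change was 3.28, but 2.38 without drought replicate 1.

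Expansins, which loosen walls during growth, and xyloglucan enzymes showed 3 rises and 3 falls among 61. An alpha-expansin (Jcr4S02633.40) fell 4.50-fold, with 10.8 and 14.9 CPM under moderate drought against 37.2 and 78.1 CPM in the controls (adjusted p = 0.0301), a log2 fold change of -2.17, but -1.55 without control replicate 2. Beta-expansin 3 (Jcr4S08184.10) was among the 12 largest rises, with 6.18 and 1.32 CPM under moderate drought against 0.0552 and 0.112 CPM in the controls (adjusted p = 0.0298). Having 3 and 4 reads in the controls, it passed the read minimum through the drought libraries alone, and its log2 fold change was 5.52, but 4.02 without drought replicate 1 and 6.25 without drought replicate 2. Of 20 fasciclin-like and arabinogalactan proteins, cell surface glycoproteins of growing walls, 1 fell and 0 rose, with a median of -0.95 and 6 of the 20 above 0. The highest log2 fold change among them, 9.15, was not called, and 2 of the 20 passed the read minimum through the drought libraries alone. The gene that fell was a fasciclin-like arabinogalactan protein (Jcr4S00408.100), with 106 and 169.8 CPM under moderate drought against 286 and 498 CPM in the controls (adjusted p = 0.0444).

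**Figure D4:**
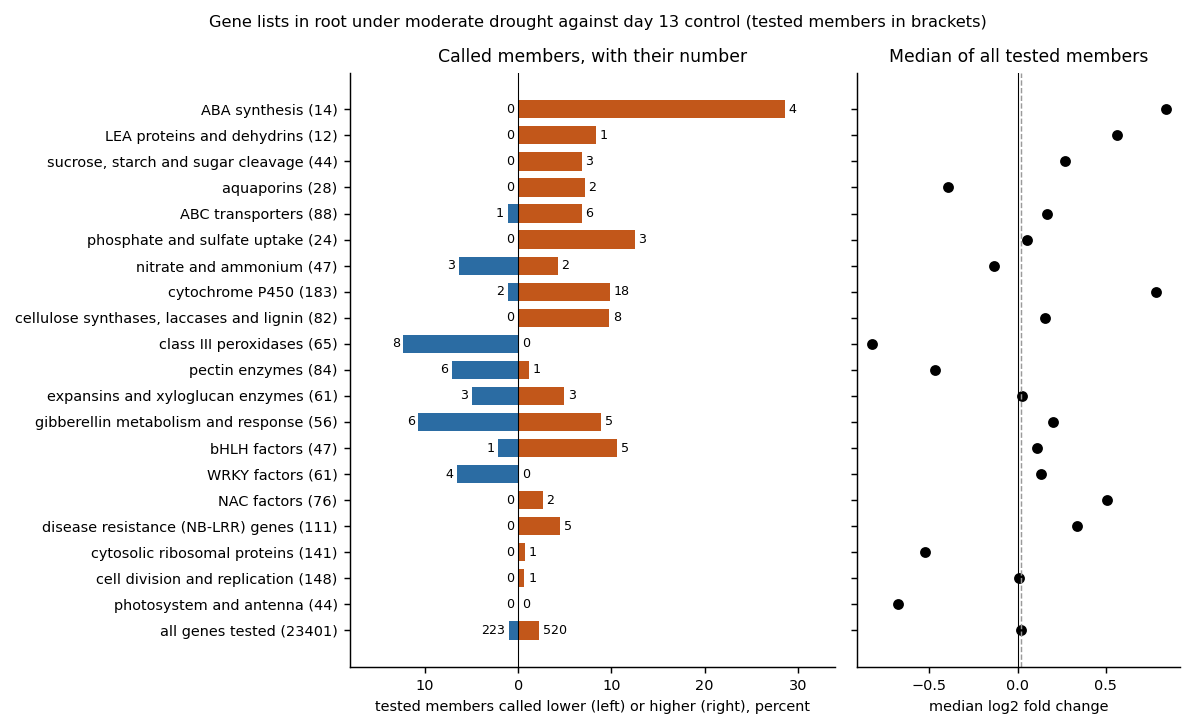
Left, share of the tested members of 20 of the 58 gene lists, picked with their results known, and of all genes tested, that were called lower (bars to the left, percent) or higher (bars to the right, percent) under moderate drought, with their numbers at the bar ends and the number of tested members in brackets. Right, median log2 fold change of all tested members, with a dashed line at the median of all genes (0.02). ABA synthesis has 4 of 14 members higher and a median of 0.84, and class III peroxidases have 8 of 65 lower and a median of -0.82.

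Gibberellin genes changed in both directions. Gibberellins promote cell elongation, and gibberellin 20-oxidases make their precursors. Of 56 genes of gibberellin metabolism and response, 5 rose and 6 fell, with a median log2 fold change of 0.20 (0.03 without control replicate 2). Gibberellin 20-oxidase 3 (Jcr4S00062.170) had 411 and 303 CPM in the moderate drought libraries, against 100.3 and 81.5 CPM in the day 13 controls, a 3.93-fold rise (adjusted p = 0.0261). A gene described only as gibberellin 20 (Jcr4S05978.40) fell 6.25-fold, with 4.48 and 13.5 CPM under moderate drought against 60.7 and 51.6 CPM in the controls (adjusted p = 0.0393), and its log2 fold change was -2.64, but -3.65 without drought replicate 2. A neighbouring pair numbered Jcr4S02593.90 and Jcr4S02593.100, both described as gibberellin 20, had 0 reads in both controls. Under moderate drought they had 19 and 26 reads and 40 and 30 reads, at least 5.19-fold and at least 8.15-fold higher when the controls are set to a floor of 3 reads per library. Both genes stayed under 1 CPM, and both passed the read minimum through the drought libraries alone. A gibberellin receptor gene (Jcr4S02347.50) fell 3.74-fold, with 7.27 and 12.5 CPM under moderate drought against 30.0 and 43.9 CPM in the controls (adjusted p = 0.0383).

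Transcription factor genes are given by family, and no test compared the families. Over all genes tested 2.22% rose and 0.953% fell. Of 57 homeobox and HD-ZIP genes, 3 rose and 0 fell (5.26% and 0%, median 0.37). A homeobox leucine zipper gene (Jcr4S00108.20) had 18.2 and 3.94 CPM in the moderate drought libraries, against 0.405 and 0.195 CPM in the day 13 controls, a 36.9-fold difference (adjusted p = 0.0298). Of 90 MYB genes, 2 rose and 1 fell (2.22% and 1.11%, median 0.26), led by Jcr4S05691.60 with 66.4 and 14.6 CPM under moderate drought against 2.80 and 0.754 CPM in the controls (adjusted p = 0.0393). In both genes replicate 1 was over 4 times as high as replicate 2, and both libraries exceeded the controls. The log2 fold change of the homeobox gene was 5.13, but 3.65 without drought replicate 1, 5.85 without drought replicate 2 and 5.80 without control replicate 1, and that of the MYB gene was 4.47, but 3.01 without drought replicate 1, 5.19 without drought replicate 2, 5.74 without control replicate 1 and 3.84 without control replicate 2. Of 76 NAC genes, 2 rose and 0 fell (2.63% and 0%), with 59 above 0 and a median of 0.51. Of 54 genes of ethylene synthesis and ERF or DREB factors, 0 passed edgeR's test in either direction (median 0.39), with between 0 and 7 higher and between 0 and 1 lower in the alternatives.

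Of 61 WRKY genes, a family best known from defence, 4 fell and 0 rose, although the median of the family was 0.13. WRKY 48 (Jcr4S00770.120) had 5.12 and 4.22 CPM in the moderate drought libraries, against 16.9 and 17.9 CPM in the day 13 controls (adjusted p = 0.0244). WRKY 36 (Jcr4S00035.90) had 2.60 and 3.11 CPM under moderate drought against 20.9 and 10.1 CPM in the controls (adjusted p = 0.0374), and its log2 fold change was -2.44, but -1.83 without control replicate 1. Among 47 bHLH genes, 5 rose and 1 fell (median 0.11, or -0.06 without control replicate 2). The bHLH90-like gene (Jcr4S01414.70) rose 3.41-fold, with 8.47 and 6.15 CPM under moderate drought against 2.28 and 2.01 CPM in the controls (adjusted p = 0.0244). The bHLH61-like gene (Jcr4S15742.10) fell 26.6-fold, with 0.483 and 0.342 CPM under moderate drought against 4.97 and 16.9 CPM in the controls (adjusted p = 0.0261), and was among the 12 largest falls. Its log2 fold change was -4.72, but -5.35 without control replicate 1 and -3.60 without control replicate 2.

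Clock genes included a matched pair. Of 10 clock and light receptor genes, 2 rose and 0 fell (median 0.24), and both are gene models of GIGANTEA, a clock protein that also takes part in flowering and stress responses. The neighbouring models Jcr4S00109.50 and Jcr4S00109.60 had 109 and 90.9 CPM under moderate drought against 35.1 and 25.5 CPM in the controls, and 774 and 636 CPM under moderate drought against 292 and 178 CPM in the controls (adjusted p = 0.0244 and 0.0347). They rose 3.29-fold and 3.00-fold, and since they may be parts of one gene they may not be separate observations. The sources used here do not give the time of day of sampling. Of 75 calcium sensing genes, 2 rose and 0 fell (median 0.14), among them a CBL-interacting protein kinase (Jcr4S00025.60), of a family that carries calcium signals to ion transporters. It had 91.7 and 69.7 CPM under moderate drought against 34.01 and 33.2 CPM in the controls (adjusted p = 0.0244).

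Cytochrome P450 genes, oxygenases of hormone and specialised metabolism, held the largest number of risers, but their list also had the most tested genes. Of 183 tested, 18 (9.84%) rose and 2 (1.09%) fell, against 2.22% and 0.953% of all genes tested. By share of risers other lists stood higher, among them ABA synthesis (28.6%) and bHLH factors (10.6%). Of the 183 P450 genes, 143 had a log2 fold change above 0, with a median of 0.78. A putative P450 (Jcr4S00043.190) had 20.8 and 16.6 CPM in the moderate drought libraries, against 2.19 and 3.35 CPM in the day 13 controls. Its log2 fold change of 2.76 ± 0.23 (SE; adjusted p = 0.0114) was the only one among the 97 that stayed called in each of the 4 fits that left out 1 library. Another P450 (Jcr4S14800.10) had 43.9 and 36.1 CPM under moderate drought against 11.4 and 11.1 CPM in the controls (adjusted p = 0.015). Against them, P450 82C4 (Jcr4S00030.160), which in Arabidopsis takes part in making iron-mobilising coumarins, fell 9.496-fold, with 13.2 and 42.2 CPM under moderate drought against 304 and 222 CPM in the controls (adjusted p = 0.0381), and its log2 fold change was -3.25, but -2.64 without drought replicate 1 and -4.32 without drought replicate 2.

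Glycosyltransferases attach sugars to hormones and specialised compounds. Of 74 tested, 5 rose and 0 fell (median 0.47), among them a cinnamate glucosyltransferase-like gene (Jcr4S13032.10) with 113 and 60.1 CPM under moderate drought against 7.47 and 10.4 CPM in the controls (adjusted p = 0.0261). Outside that list, UDP-glucosyltransferase 85A2 (Jcr4S01054.10) was among the 12 largest rises, with 24.9 and 12.2 CPM under moderate drought against 0.110 and 0.279 CPM in the controls (adjusted p = 0.0372) and a log2 fold change of 6.64, but 6.04 without drought replicate 1, 6.04 without control replicate 1 and 7.35 without control replicate 2. A tau class glutathione transferase (Jcr4S12402.20), of a family that conjugates toxic and oxidised compounds, had 49.7 and 39.7 CPM in the moderate drought libraries, against 11.6 and 7.68 CPM in the day 13 controls (adjusted p = 0.0188). It was the 1 riser of 26 glutathione transferases, of which 1 fell. A gene described as reticuline oxidase (Jcr4S04361.10), of the berberine bridge enzyme family, rose 45.3-fold, with 86.5 and 21.9 CPM under moderate drought against 0.938 and 1.45 CPM in the controls (adjusted p = 0.0306). Its log2 fold change was 5.52, but 4.21 without drought replicate 1 and 6.19 without drought replicate 2.

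Some genes of protein breakdown and defence were among the large rises. Of 90 protease genes, 7 rose and 1 fell (median 0.23), and 3 putative cysteine proteases stood among the 12 largest rises. The most abundant of them in CPM, Jcr4S06821.10, had 150.4 and 44.0 CPM in the moderate drought libraries, against 1.29 and 1.06 CPM in the day 13 controls (adjusted p = 0.0478). Its partners Jcr4S00250.10 and Jcr4S03144.30 had 85.8 and 52.8 CPM under moderate drought against 0.184 and 0.475 CPM in the controls, and 13.3 and 13.7 CPM under moderate drought against 0.368 and 0.279 CPM in the controls (adjusted p = 0.0482 and 0.04). Of 73 pathogenesis-related and latex protein genes, 5 rose and 0 fell (median 0.36). A major latex protein gene (Jcr4S13339.10) had 255 and 106 CPM under moderate drought against 17.1 and 20.8 CPM in the controls (adjusted p = 0.0301), and an MLP-like protein 423 gene (Jcr4S02039.100) had 4.28 and 1.04 CPM under moderate drought against 0.0368 and 0.0558 CPM in the controls (adjusted p = 0.0315). Both are of the Bet v 1-like family of small binding proteins, and the second, with 2 reads in each control, passed the read minimum through the drought libraries alone. The log2 fold change of the first was 3.25, but 2.48 without drought replicate 1, and that of the second was 5.81, but 4.46 without drought replicate 1 and 6.498 without drought replicate 2. Among the proteases it was 6.36, but 5.22 without drought replicate 1 and 6.99 without drought replicate 2 for Jcr4S06821.10, and 7.79, but 7.18 without control replicate 1 and 8.52 without control replicate 2 for Jcr4S00250.10.

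Among 7 genes for ribosome-inactivating proteins, toxins known from the seeds and latex of the spurge family, 1 rose and 0 fell. The type 2 member Jcr4S02263.10 had 356 and 142 CPM in the moderate drought libraries, against 16.7 and 10.2 CPM in the day 13 controls, an 18.5-fold rise (adjusted p = 0.0301) and a log2 fold change of 4.21, but 3.40 without drought replicate 1. Of 111 NB-LRR disease resistance genes, 5 rose and 0 fell, with a median of 0.34 (0.15 without control replicate 2). An RPP13-like gene (Jcr4S02601.10) had 67.7 and 48.7 CPM under moderate drought against 14.04 and 10.8 CPM in the controls (adjusted p = 0.0261). Members of such large families share sequence, and the sources used here do not say how the authors assigned reads that match several copies. Of 51 serine carboxypeptidases, 3 rose and 3 fell. Serine carboxypeptidase-like 40 (Jcr4S01219.30) fell 13.3-fold, with 0.317 and 0.202 CPM under moderate drought against 3.92 and 2.99 CPM in the controls (adjusted p = 0.0244).

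Genes of cell division, histones and ribosomal proteins each gave 1 call. Of 148 cell division and replication genes, 1 rose (0.676%, against 2.22% of all genes tested) and 0 fell, with a median log2 fold change of 0.01 (-0.02 with RLE scaling, -0.12 without control replicate 2). The riser was a phragmoplast kinesin (Jcr4S02256.60), a motor of the dividing cell plate, with 13.2 and 7.50 CPM under moderate drought against 3.99 and 2.85 CPM in the controls (adjusted p = 0.0439). Of 22 histone genes, 1 rose and 0 fell, although 18 of the 22 had a log2 fold change at or below 0 (median -0.74, or -0.48 without control replicate 2). The riser was a linker histone H1-3 gene (Jcr4S00402.60), with 374 and 214 CPM in the moderate drought libraries, against 121 and 78.4 CPM in the day 13 controls (adjusted p = 0.0483); drought-induced linker histones of this kind are known from Arabidopsis and tomato. Of 141 cytosolic ribosomal protein genes, 11 had a log2 fold change above 0 and the median was -0.52, but 1 rose, Jcr4S00351.70, and 0 fell. It had 21.8 and 10.1 CPM under moderate drought against 3.37 and 2.40 CPM in the controls (adjusted p = 0.0306), and a log2 fold change of 2.46, but 1.80 without drought replicate 1. The summed level of the 141 genes was 24450 and 27670 CPM under moderate drought, against 28620 and 46720 CPM in the day 13 controls, so control replicate 2 alone stood high. The sum over all genes tested was also highest in that library, at 1130000 CPM against 959600 CPM in control replicate 1. The median was -0.82 without control replicate 1 and -0.15 without control replicate 2, and in the alternatives between 0 and 98 of these genes fell.

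Heat shock genes gave a single call. Of 80 tested, 1 rose (1.25%, against 2.22% of all genes tested) and 0 fell, with a median of 0.02 (-0.09 without control replicate 1, 0.31 without control replicate 2). The riser, a small heat shock protein (Jcr4S11638.20), had 17.7 and 10.2 CPM under moderate drought against 5.85 and 5.03 CPM in the controls (adjusted p = 0.0412). Of 24 genes linked to low oxygen, 1 fell and 0 rose (median -0.70, or -0.38 without control replicate 2). That gene, for a B12D protein (Jcr4S08627.40), had 0.117 and 0.124 CPM in the moderate drought libraries, against 2.69 and 70.7 CPM in the day 13 controls, so the controls differed from each other by over 20 times, and it passed the read minimum through the controls alone. Its log2 fold change was -8.22 ± 1.72 (adjusted p = 0.0498), or -4.46 without control replicate 2 and -9.17 without control replicate 1.

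Markers of other cells and tissues of the root were read beside these results. Of 44 photosystem and antenna genes, 0 passed edgeR's test and the median was -0.67 (-0.29 without control replicate 2), with between 0 and 6 lower and 0 higher in the alternatives. Of 23 xylem markers 1 rose and 0 fell (median 0.91, summed levels of 2646 and 2195 CPM under moderate drought against 1378 and 1928 CPM in the controls). Of 10 root hair markers and 5 phloem markers, 0 passed edgeR's test (medians -0.10, or 0.02 with library totals alone, and 0.47), and in the alternatives at most 3 root hair markers and 1 phloem marker were called in a direction. Of 14 root cap and root growth genes 2 rose and 0 fell (median 0.29), and of 11 suberin and Casparian strip genes 1 rose and 0 fell (median 0.18). Summed levels of the root hair list were 626 and 782 CPM under moderate drought, against 914 and 1141 CPM in the controls. The part of cell composition in any result above was not tested.

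The 12 largest rises among described genes of at least 2 CPM held genes with unlike patterns over the other root groups. The gene for an EG45-like domain protein (Jcr4S00216.20), of a family of small secreted proteins related to expansins, had 42.2 and 17.3 CPM in the moderate drought libraries, against 0.0184 and 0.195 CPM in the day 13 controls, a 278-fold difference (adjusted p = 0.0484). Having 1 and 7 reads in the controls, it passed the read minimum through the drought libraries alone, and its log2 fold change was 8.30, but 7.51 without drought replicate 1, 7.23 without control replicate 1 and 10.46 without control replicate 2. It had 0.150 and 0.191 CPM under severe drought, against 105 and 177 CPM in the day 49/52 controls. So it was near the counting limit in the day 13 controls and under severe drought, and highest in the late controls. The cysteine protease Jcr4S00250.10 likewise had 0.549 and 0.668 CPM under severe drought, against 189.7 and 246 CPM in the day 49/52 controls, the glucosyltransferase Jcr4S01054.10 had 0.0749 and 0.0716 CPM under severe drought, against 39.3 and 56.9 CPM in the day 49/52 controls, and yellow stripe-like 5 (Jcr4S00067.30) had 1.20 and 0.860 CPM under severe drought, against 49.6 and 65.7 CPM in the day 49/52 controls.

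Other large rises were high under both droughts. A glycine-rich protein gene (Jcr4S06018.30) had 127 and 63.2 CPM in the moderate drought libraries, against 1.32 and 1.34 CPM in the day 13 controls, with a log2 fold change (with its SE) of 6.16 ± 0.57 (adjusted p = 0.015), or 5.57 without drought replicate 1. It had 78.9 and 57.5 CPM under severe drought, against 4.23 and 8.38 CPM in the day 49/52 controls. A spotted leaf gene (Jcr4S03546.20), named after a rice ubiquitin ligase that restrains cell death, had 101 and 18.5 CPM under moderate drought against 1.29 and 0.530 CPM in the controls (adjusted p = 0.0271), and 70.4 and 61.6 CPM under severe drought, against 2.65 and 3.18 CPM in the day 49/52 controls. The log2 fold change of the spotted leaf gene was 5.995, but 4.30 without drought replicate 1, 6.75 without drought replicate 2 and 6.81 without control replicate 1. The homeobox gene Jcr4S00108.20 had 168 and 146 CPM under severe drought, against 1.19 and 1.02 CPM in the day 49/52 controls, and the MYB gene Jcr4S05691.60 had 415 and 338 CPM under severe drought, against 12.7 and 14.1 CPM in the day 49/52 controls. A gene with ACT domains (Jcr4S02373.60), a fold that binds amino acids, had 148 and 712 reads under moderate drought and 2 and 0 reads in the day 13 controls, which are too few for a fold; it passed the read minimum through the drought libraries alone. In rewatered roots these genes were low again: the glycine-rich gene had 1.88 and 0.924 CPM, the spotted leaf gene 0.880 and 0.725 CPM and the homeobox gene 0.318 and 0.254 CPM.

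The largest falls were led by a lipid binding gene (Jcr4S00971.120), also the falling gene with the highest level per gene length. It had 1.5 and 3.96 CPM in the moderate drought libraries, against 385 and 2305 CPM in the day 13 controls, a 493-fold difference (log2 fold change -8.94 ± 1.17, adjusted p = 0.0256). The controls differed from each other by about 6 times, and the log2 fold change was -9.81 without drought replicate 2, -9.72 without control replicate 1 and -7.15 without control replicate 2. A stearoyl-ACP desaturase (Jcr4S03522.10), which makes oleic acid, had 6.78 and 6.38 CPM in the moderate drought libraries, against 33.99 and 341 CPM in the day 13 controls (adjusted p = 0.0462), with a log2 fold change of -4.83, but -5.70 without control replicate 1 and -2.38 without control replicate 2. A lipid transfer protein gene (Jcr4S00065.160) had 18.02 and 42.5 CPM under moderate drought against 152 and 513 CPM in the controls (adjusted p = 0.0463), with one of -3.46, but -4.21 without drought replicate 2, -4.08 without control replicate 1 and -2.34 without control replicate 2. Thus in these 3 genes of lipid binding or synthesis control replicate 2 was the highest library. Of 60 genes for lipid transfer, wax and cutin, 1 rose and 2 fell (median 0.21, or -0.23 without drought replicate 1). The riser, Jcr4S02683.20, was one of the rising genes with the highest level per gene length, with 1870 and 938 CPM under moderate drought against 284 and 232 CPM in the controls (adjusted p = 0.0477).

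Other genes of that group fell too. A polyketide cyclase and lipid transport gene (Jcr4S00137.160) had 3.57 and 4.97 CPM in the moderate drought libraries, against 69.5 and 118 CPM in the day 13 controls, a log2 fold change (with its SE) of -4.45 ± 0.39 (adjusted p = 0.015). A heme oxygenase-like gene (Jcr4S06729.30) fell 18.1-fold, with 0.733 and 2.70 CPM under moderate drought against 35.2 and 26.8 CPM in the controls (adjusted p = 0.0385), and its log2 fold change was -4.17, but -3.52 without drought replicate 1 and -5.40 without drought replicate 2. A gene described as desacetoxyvindoline 4 (Jcr4S06388.10) fell 14.97-fold, with 1.03 and 1.68 CPM under moderate drought against 25.6 and 14.99 CPM in the controls (adjusted p = 0.0189). The description resembles that of a hydroxylase of alkaloid synthesis in Madagascar periwinkle, and such names often stand for related oxygenases of unknown substrate. A gene for a hydrolase of O-glycosyl bonds (Jcr4S04564.30) had 0.400 and 0.776 CPM under moderate drought against 7.65 and 8.71 CPM in the controls (adjusted p = 0.0244).

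Among the falling genes with the highest level per gene length, a copper ion binding gene (Jcr4S00691.20) had 215 and 349 CPM in the moderate drought libraries, against 874 and 1395 CPM in the day 13 controls (adjusted p = 0.0366). A gene described as pollen-specific protein C13 (Jcr4S15884.10) had 190.2 and 216 CPM under moderate drought against 373 and 560.5 CPM in the controls (adjusted p = 0.0352), and an ADP-ribosylation factor-like gene (Jcr4S00680.130), of a family of small GTPases of vesicle traffic, had 114 and 158 CPM under moderate drought against 247 and 356 CPM in the controls (adjusted p = 0.0455). Each fell between 2.21-fold and 4.02-fold. Among the rising genes of that kind, Jcr4S00096.120 matched only a hypothetical poplar protein. It had 2895 and 1754 CPM under moderate drought against 279 and 549 CPM in the controls (adjusted p = 0.0329).

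Of the 743 called genes, 603 had an informative description. The undescribed genes with the largest rises were Jcr4S17467.10, with 854 and 709 reads under moderate drought and 1 and 1 in the day 13 controls, and Jcr4S05868.10, with 182 and 106 reads under moderate drought and 0 and 1 in the day 13 controls. Both had too few control reads for a fold and passed the read minimum through the drought libraries alone, as did the next gene. Another, Jcr4S00115.100, had 12.6 and 6.32 CPM under moderate drought against 0.0368 and 0.168 CPM in the controls, a 92.8-fold difference (adjusted p = 0.0244), and 210.4 and 295 CPM under severe drought, against 11.2 and 14.8 CPM in the day 49/52 controls. Its log2 fold change was 6.67, but 6.08 without drought replicate 1, 5.80 without control replicate 1 and 7.90 without control replicate 2. Those with the largest falls were Jcr4S00154.100, with 0.133 and 0.373 CPM under moderate drought against 2.67 and 4.13 CPM in the controls (adjusted p = 0.0261), Jcr4S01614.120, with 1.23 and 1.13 CPM under moderate drought against 9.75 and 10.2 CPM in the controls (adjusted p = 0.0393), and Jcr4S01313.40. The last had 0 reads under moderate drought, against 10 and 10 reads in the controls, at least 4.79-fold lower when the drought libraries are set to a floor of 3 reads, and it passed the read minimum through the controls alone. The log2 fold change of Jcr4S00154.100 was -3.72, but -4.64 without drought replicate 2.

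Severe drought (49 days) against its own day 49/52 control shares no library with the comparison above, so the effects of both stages could be set against each other. Both were tested in the same fit with a shared spread per gene, so the calls at both stages are not independent. A gene of low spread is more readily called at each stage, in either direction, and the shares below are descriptions. Of all genes tested, 20.6% rose and 25.7% fell under severe drought. Of the 520 genes that rose under moderate drought, 128 (24.6%) also rose under severe drought and 249 (47.9%) fell. Of the 223 that fell, 151 (67.7%) also fell and 16 (7.17%) rose. Seen from the other side, 2.66% of the genes that rose under severe drought and 2.51% of those that fell had moved the same way under moderate drought. The difference of both effects, tested in the fit of the 10 root libraries, was significant for 31.9% of all genes and for 478 of the 743, with 384 among the rises and 94 among the falls. The moderate effect is part of that difference, and the 743 genes were picked by it. Their share can therefore not be set against that of all genes.

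**Figure D5:**
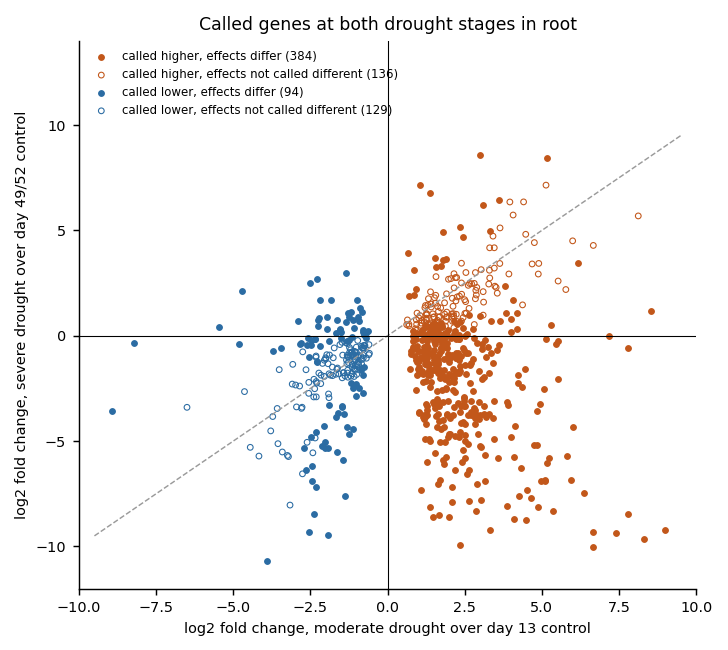
Log2 fold change of the 743 called genes under moderate drought (horizontal axis, over day 13 control) against severe drought (vertical axis, over day 49/52 control), with the rises in orange and the falls in blue. Filled points mark the 478 genes whose effects differed at an adjusted p under 0.05, open points the others, and the dashed line marks equal effects; many genes that rose under moderate drought lie below 0 on the vertical axis.

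Gibberellin 20-oxidase 3 (Jcr4S00062.170) reversed between the stages, with a severe minus moderate difference of -10.57 ± 0.47 on the log2 scale (adjusted p = 9.56e-05). It had 0.749 and 0.812 CPM under severe drought, against 225 and 383 CPM in the day 49/52 controls. The tonoplast intrinsic protein (Jcr4S16114.20) had 1.55 and 2.03 CPM under severe drought, against 35.6 and 66.1 CPM in the day 49/52 controls, and the NIP1-2-like aquaporin (Jcr4S07404.30) had 0.125 and 0.167 CPM under severe drought, against 15.7 and 27.5 CPM in the day 49/52 controls. Both water channels thus rose under moderate drought and fell under severe drought, and both differences were significant (adjusted p = 0.000199 and 9.56e-05). The pyrophosphatase Jcr4S01426.60 and the P450 gene Jcr4S14800.10 showed the same reversal, with 0.0749 and 0.143 CPM under severe drought, against 7.32 and 11.4 CPM in the day 49/52 controls, and with 0.374 and 0.501 CPM under severe drought, against 29.4 and 30.9 CPM in the day 49/52 controls (adjusted p of the differences 0.000146 and 8.83e-05). NCED 5 (Jcr4S15630.10) rose at both stages but less under severe drought, with 27.8 and 23.4 CPM under severe drought, against 5.71 and 4.33 CPM in the day 49/52 controls, a difference of -1.44 ± 0.38 (adjusted p = 0.0245). The small heat shock gene Jcr4S11638.20 went the other way, at 2386 and 2257 CPM under severe drought, against 19.9 and 22.5 CPM in the day 49/52 controls, a difference of 5.42 ± 0.38 (adjusted p = 0.000177). For the phosphatase Jcr4S07634.50 and sucrose-phosphate synthase (Jcr4S01533.40) the difference missed the threshold, at 1.31 ± 0.49 and -0.21 ± 0.57 (adjusted p = 0.0772 and 0.808), which does not show that the effects were alike.

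Young leaves under the same treatments gave the same contrast in another organ. In the fit of all 22 libraries, edgeR called 0 of the 23401 genes in leaf at moderate drought, with 1436 at an unadjusted p under 0.05. The same fit called 1654 genes higher and 1295 lower in root. These genes were admitted by their reads in root, so genes read in leaf alone were not tested. Of the 743 genes from the fit of root libraries, those that rose had a median leaf log2 fold change of 0.08 and those that fell one of -0.12. The difference between the organs, tested as an interaction, was significant for 265 genes (1.13%), of which 189 were among the 743, with 143 rises and 46 falls. The root effect that picked the 743 is part of this difference too, so their share can not be set against that of all genes. NCED 5 (Jcr4S15630.10) had 0.583 and 0.781 CPM in moderate drought leaves and 0.405 and 1.61 CPM in control leaves, and its root minus leaf difference was 4.35 ± 0.69 on the log2 scale (adjusted p = 0.015). The glycine-rich gene Jcr4S06018.30 had 12.5 and 9.18 CPM in moderate drought leaves against 8.68 and 8.54 CPM in control leaves, a difference of 5.82 ± 0.54 (adjusted p = 0.000603). GIGANTEA (Jcr4S00109.60) had 171 and 219.8 CPM in moderate drought leaves, against 389 and 289 CPM in control leaves, so it was lower in the drought libraries there, and the difference of 2.37 ± 0.35 was significant (adjusted p = 0.0098). The dehydrin Jcr4S01519.40 had 796 and 1240 CPM in moderate drought leaves against 440.1 and 570.2 CPM in control leaves, and the difference of 0.53 ± 0.37 missed the threshold (adjusted p = 0.532). The phosphatase Jcr4S07634.50 missed it narrowly, at 2.15 ± 0.49 (adjusted p = 0.0504), with 132 and 82.7 CPM in moderate drought leaves against 29.6 and 60.6 CPM in control leaves.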

How the data were processed

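Per the labels' protocols, root tips of at most 1 cm gave the RNA, 400 ng of it entered each TruSeq RNA v2 library (a kit that does not mark strand), and reads were single-end and 50 bp long. The authors deposited raw read counts for each gene model, which all results rest on. They also deposited an RPKM table (reads per gene length and library size), whose lowest value is 1 and whose sorted columns differ by at most 0.7; it was used for ranking by level and for alternatives. The genome build, aligner, counting tool and rule for reads with several matches were not given in the sources used here. Overlapping and near-identical genes may therefore share reads. No positions or sequences could be joined to these gene identifiers.

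The analysis used edgeR 4.0.16 in R 4.3.3: TMM scaling, a robust quasi-likelihood fit of group means over the 10 root libraries, and two-sided F tests, adjusted by the Benjamini-Hochberg method. The other root libraries helped to estimate the spread (common dispersion 0.0715). The severe minus moderate difference came from the same fit, and the root minus leaf difference from a fit of all 22 libraries. The pipeline was checked on simulated counts with known changes. Those counts were drawn with the same spread for a gene in every root group, while the day 13 controls here varied more than the others. The check therefore covers the working of the code and not the reliability of the reported calls. Alternatives used RLE scaling or library totals, other filters (at least 50 reads, none, filterByExpr), other sets of libraries, DESeq2 1.42.0, limma 3.58.1 on log2(RPKM + 1) or log2(RPKM + 0.1), a non-robust fit, a replicate block, and leaving out each library. Where a group had 0 reads, the fold was taken against 3 reads in each library as a floor, which covers counting error only, as reads carry no molecular identifiers. Against a group with 1 to 3 reads in total no fold is given; for such genes the fitted differences between effects in the closing section have no interpretable size.

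The 58 gene lists are patterns on the authors' gene descriptions and hold 2965 of the tested genes. The genes, lists and comparisons were chosen with earlier results of these data known, and the patterns follow how the descriptions are spelled, with some lists added after reading them (among them ABC transporters, proton pumps, clock genes, serine carboxypeptidases, ribosome-inactivating proteins and transposon-derived genes). Named genes are the 12 largest rises and falls among called, described genes with at least 2 CPM in the higher group, the 5 called genes in each direction with the highest mean RPKM, up to 3 called members a list and direction by p (or the member with the smallest p), and the 3 undescribed genes with the largest change in each direction. Not all genes that the rule allows are named. Groups follow the labelled organ, treatment and day. The labels give 7 days of rewatering in one place and 3 in another, and speak of plants of a second accession, which are not analysed here.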

Additional observations from a re-analysis of the deposited data

Results flagged for a closer look

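The genes below stand out because their response to moderate drought in root differed from that in leaf, or from that to severe drought in root, each by a test of the difference itself (edgeR quasi-likelihood, adjusted p under 0.05 over 23401 genes). They are the genes named in the report that passed: 34 for the organs and 56 for the stages, out of 265 and 7466 genes that passed in all. Values are differences of log2 fold changes, and where a group had few or no reads their size depends on the small count that edgeR adds. That holds most of all for Jcr4S17467.10, Jcr4S05868.10, Jcr4S02373.60, Jcr4S02593.90, Jcr4S02593.100 and Jcr4S02039.100, which had 0 to 2 reads in each day 13 control. It also holds for the severe minus moderate difference of Jcr4S06388.10, which had 0 CPM in both severe drought libraries. Among genes low in leaf, reticuline oxidase (Jcr4S04361.10), the spotted leaf gene (Jcr4S03546.20) and the type 2 ribosome-inactivating protein (Jcr4S02263.10) had at most 0.276, 0.483 and 1.38 CPM in the day 13 leaf libraries. Their leaf log2 fold changes of -2.44, -1.38 and -2.19 were not called but are part of the root minus leaf difference. The values of these genes give a direction and no size, and their place among the others is no ranking. The same goes for the EG45-like gene (Jcr4S00216.20), with 1 and 7 reads in the day 13 controls, and the B12D gene (Jcr4S08627.40). The first passed the read minimum through the drought libraries alone and the second through the controls alone, so each had to differ to be tested. The B12D log2 fold change under moderate drought was -8.22, but -4.46 without control replicate 2. No explanation of these differences was tested.

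Root minus leaf differences above 0 mean that the gene moved up more, or down less, in root. Among genes of ABA synthesis they were 4.35 for NCED 5 (Jcr4S15630.10), 4.88 for NCED 3 (Jcr4S03683.20) and 2.09 for beta-carotene hydroxylase (Jcr4S01869.30). Transport genes gave 2.38 for a nitrate transporter (Jcr4S00065.170), 5.21 for yellow stripe-like 5 (Jcr4S00067.30), 1.86 for a sulfate transporter (Jcr4S02200.10) and 1.79 for the potassium channel AKT2 (Jcr4S06908.10). A pyrophosphatase (Jcr4S01426.60), which may not be a transporter, gave 3.11. Hormone and sugar genes gave 4.00 for gibberellin 20-oxidase 3 (Jcr4S00062.170), 7.14 and 7.60 for a pair of gibberellin genes at few reads (Jcr4S02593.90 and Jcr4S02593.100), 3.37 for sucrose-phosphate synthase (Jcr4S01533.40) and 1.18 for sucrose synthase 6 (Jcr4S03359.20). The GIGANTEA models gave 2.51 (Jcr4S00109.50) and 2.37 (Jcr4S00109.60), the bHLH90-like gene 1.54 (Jcr4S01414.70) and the phragmoplast kinesin 1.66 (Jcr4S02256.60).

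Other rises that were larger in root by this test were the glycine-rich gene at 5.82 (Jcr4S06018.30), the spotted leaf gene at 7.36 (Jcr4S03546.20), the ACT domain gene at 9.22 (Jcr4S02373.60) and reticuline oxidase at 7.96 (Jcr4S04361.10). They also include the glucosyltransferases at 6.65 (Jcr4S01054.10) and 3.24 (Jcr4S13032.10), a cysteine protease at 6.36 (Jcr4S06821.10), the type 2 ribosome-inactivating protein at 6.39 (Jcr4S02263.10), the major latex protein at 2.95 (Jcr4S13339.10), a pectinesterase inhibitor at 3.08 (Jcr4S10330.30) and the hypothetical protein Jcr4S00096.120 at 3.03. Differences below 0 were -7.62 for the lipid binding gene (Jcr4S00971.120), -5.68 for the desaturase (Jcr4S03522.10), -4.92 for the bHLH61-like gene (Jcr4S15742.10), -3.04 for P450 82C4 (Jcr4S00030.160), -2.51 for the high affinity nitrate transporter (Jcr4S03942.10) and -2.13 for the gibberellin receptor (Jcr4S02347.50).

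Severe minus moderate differences below 0 mean that the gene moved up less, or down more, at 49 days. Farthest below 0 as fitted were -18.23 (Jcr4S17467.10, undescribed), -17.97 (EG45-like, Jcr4S00216.20), -16.77 (Jcr4S05868.10, undescribed), -16.26, -13.85 and -13.67 (cysteine proteases Jcr4S00250.10, Jcr4S06821.10 and Jcr4S03144.30) and -15.96 (glucosyltransferase, Jcr4S01054.10). Then came -11.54 (MLP-like 423, Jcr4S02039.100), -11.03 (yellow stripe-like 5, Jcr4S00067.30), -10.57 (gibberellin 20-oxidase 3, Jcr4S00062.170) and -9.59 (an ABA 8'-hydroxylase, Jcr4S00544.20). Water channels gave -9.26 (NIP1-2-like, Jcr4S07404.30) and -7.14 (tonoplast intrinsic protein, Jcr4S16114.20). The pyrophosphatase Jcr4S01426.60 gave -8.55 and the plasma membrane ATPase Jcr4S01029.40 gave -0.89. Gibberellin genes gave -8.39 (Jcr4S02593.100), -7.17 (Jcr4S02593.90) and -3.71 (Jcr4S05978.40), and P450 genes -7.92 (Jcr4S14800.10) and -3.86 (Jcr4S00043.190).

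Uptake and metal genes gave -4.88 (ferric reduction oxidase 4, Jcr4S00346.110), -3.82 (nicotianamine synthase, Jcr4S00112.230), -3.09 (sulfate transporter, Jcr4S02200.10), and -3.02 and -1.92 (nitrate transporters Jcr4S04372.30 and Jcr4S00065.170). Wall enzymes gave -2.60 and -2.21 (peroxidases Jcr4S02619.50 and Jcr4S07131.10) and -2.19 and -1.37 (pectin methylesterases Jcr4S00004.400 and Jcr4S02562.10). Hormone, sugar and signalling genes gave -1.44 (NCED 5, Jcr4S15630.10), -3.82 (ABA 8'-hydroxylase, Jcr4S01285.10), -1.92 and -2.84 (sucrose synthases Jcr4S00994.10 and Jcr4S03359.20), -1.53 (CBL-interacting kinase, Jcr4S00025.60), -1.14 (GIGANTEA, Jcr4S00109.50), -2.18 (bHLH90-like, Jcr4S01414.70), and -3.72 and -1.38 (WRKY genes Jcr4S00035.90 and Jcr4S00770.120).

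The remaining differences below 0 were -6.77 (desacetoxyvindoline 4, Jcr4S06388.10), -5.76 (reticuline oxidase, Jcr4S04361.10), -5.42 (hypothetical protein, Jcr4S00096.120), -5.06 (glucosyltransferase, Jcr4S13032.10), -3.90 (ribosome-inactivating protein, Jcr4S02263.10), -3.80 (major latex protein, Jcr4S13339.10), -3.15 (a ribosomal protein, Jcr4S00351.70) and -2.72 (glycine-rich, Jcr4S06018.30). Differences above 0 were 7.88 (B12D, Jcr4S08627.40), 6.85 (bHLH61-like, Jcr4S15742.10), 5.42 (small heat shock protein, Jcr4S11638.20), 5.36 (lipid binding, Jcr4S00971.120), 4.46 (desaturase, Jcr4S03522.10), 3.00 (serine carboxypeptidase-like 40, Jcr4S01219.30), 2.88 (lipid transfer, Jcr4S00065.160), 2.28 (zeaxanthin, Jcr4S00215.20), 2.17 (alpha-galactosidase, Jcr4S02582.50) and 1.41 (fasciclin-like, Jcr4S00408.100).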

How the results depend on the processing

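The reported counts were 520 genes higher and 223 lower. With only the 4 compared libraries they were 0 and 0, with all 22 libraries 1654 and 1295, with 8 root libraries (severe drought left out) 32 and 13, and with DESeq2 1727 and 1456. By limma on the deposited RPKM values, 466 genes were lower at a pseudocount of 1 and 433 at a pseudocount of 0.1, against 555 and 579 higher, and over all gene models 106 were higher and 93 lower. Leaving out 1 library gave 2 to 2168 higher and 0 to 2389 lower, with the lowest counts without day 13 control replicate 2. Other scalings and filters kept both counts within 1.5 times. The share of calls that were higher was 70% as reported and 78.3% with library totals, which moved the median of all genes to 0.14, but 54.3% with DESeq2 and 56.1% with all 22 libraries. The cause of these differences was not tested.

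Root minus leaf differences numbered 265, and 14 to 1847 when 1 library was left out. Severe minus moderate differences numbered 7466, and 4297 to 8792 when 1 library was left out. RLE scaling and the stricter filter kept both within 1.5 times.

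Of the 97 named genes that rose or fell, 95 were still called with RLE scaling, 96 by DESeq2, 77 without a filter, 18 with 8 root libraries and 0 with only the 4 compared libraries. All 99 named genes kept their direction under the alternatives that gave a value, except Jcr4S01313.40, whose log2 fold change was 0 in the 3 fits of RPKM values, where it is listed at the lowest value in each of the 4 libraries.

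Libraries with the same replicate number were not treated as pairs in the reported fit, as the labels state no pairing. Their departures from the group means correlated across genes at -0.044 between moderate drought and the day 13 controls. Over all pairs of root groups the correlation ran from -0.241 to 0.22. Such values cannot show whether the libraries were paired, since a pairing may have a small effect or one on few genes. With a replicate block 403 genes were higher and 197 lower, of which 354 and 144 were among those reported, and the differences numbered 224 between organs and 6734 between stages.

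Depth was 40505308 to 61148792 reads in the compared libraries, and the spread within groups exceeded counting error, the chi-square divided by its degrees of freedom being 101.2 under moderate drought and 157.4 in the day 13 controls. With 2 libraries a group no result separates the treatment from differences between the sampled pots.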

Other observations

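Other gene groups are set beside all genes tested, of which 2.22% rose and 0.953% fell at 13 days. Of 116 auxin response and transport genes, 5 rose (4.31%) and 0 fell, with a median log2 fold change of -0.05, or 0.07 with library totals alone. Of 34 cytokinin and brassinosteroid genes, 3 rose (8.82%) and 0 fell (median 0.15, or 0.03 without control replicate 2). Sugar transporters, which move sucrose and hexoses between cells, showed 2 falls (5.71%) and 0 rises among 35, with a median of -0.35 and 11 of the 35 above 0. Of 74 flavonoid synthesis genes 1 rose and 1 fell (1.35% each, median 0.36, or 0.09 without drought replicate 1), and of 29 DnaJ co-chaperones 1 rose and 0 fell (3.45%, median 0.21, or 0.02 without control replicate 2).

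Jasmonate pathway genes (27) and antioxidant enzymes (36) had 0 calls by edgeR, with medians of 0.22 and -0.01. The jasmonate median was -0.10 without drought replicate 2, and the antioxidant median was 0.11 with library totals alone and 0.03 without control replicate 2. In the alternatives between 0 and 3 jasmonate genes were higher and between 0 and 1 lower, while 0 antioxidant genes were higher and between 0 and 3 lower. Transposon-derived gene models, of which 178 of 2819 had enough reads to be tested, also had 0 calls (median -0.12, or 0.01 with library totals alone and 0.05 without control replicate 2), with at most 6 higher and 4 lower in the alternatives. Under severe drought, against the day 49/52 controls, 44 of these 178 rose and 14 fell, while 20.6% of all genes tested rose and 25.7% fell in that comparison.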
